A study of Mus musculus with 2 samples.

Results

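The genes described here encode the proteasome, the protease complex that degrades ubiquitin-tagged proteins. They were taken by symbol from both tables: every row whose name begins with Psma, Psmb, Psmc, Psmd or Psme followed by a digit, which gave 45 of 24357 named rows. The libraries came from 1 group, epithelial cells of the ileum of wildtype C57BL/6 mice, which received no treatment named in the labels. The cells were released with EDTA and sorted by flow cytometry as positive for EpCAM, an epithelial surface protein, negative for CD45, the pan-leukocyte surface protein, and negative for the dead-cell dye 7AAD. There were 2 libraries, called replicate 1 and replicate 2 in accession order, whose titles share a code that the labels do not explain. Not given in the sources used here are the age and sex of the mice and whether a library holds 1 animal or a pool, so the spread below is that between these samples. Values are FPKM, fragments scaled to transcript length and to the size of the library, so levels of different genes can be set side by side per length. Errors given as ± are SDs (n = 2 libraries).

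The proteasome core, called 20S, is a barrel of stacked rings. The outer rings hold alpha subunits that gate the channel, and the inner rings hold beta subunits, of which Psmb5, Psmb6 and Psmb7 carry the constitutive proteolytic sites. A cap called the 19S particle recognises ubiquitin, unfolds the substrate with a ring of ATPases and feeds it into the barrel, and core and cap together form the 26S proteasome. Interferon gamma induces 3 replacement catalytic subunits, Psmb8 (LMP7), Psmb9 (LMP2) and Psmb10 (MECL-1), which assemble into the immunoproteasome and shift the cleavage of peptides for display on MHC class I molecules. It also induces Psme1 and Psme2, which form the PA28 activator that caps the barrel without ATP.

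The sorted cells carried the transcripts of their label. The 6 epithelial markers Epcam, Cdh1, Krt8, Krt18, Vil1 and Cldn7 summed to 5310 FPKM in replicate 1 and 4472 in replicate 2. Of 15 leukocyte markers, 1 reached 1 FPKM in both libraries, Itgam with 3.12 FPKM in replicate 1 and 1.90 in replicate 2, and their sums were 6.23 and 4.16 FPKM. Ptprc, which encodes CD45, had 0.866 and 0.436 FPKM, and Cd4 was listed at 0 in both. The lowest values implied about 16200000 fragments in replicate 1 and 26100000 in replicate 2. The samples also differed in sex-linked transcripts, with Xist at 7.91 FPKM in replicate 1 and 0.00640 in replicate 2, and Eif2s3y, a Y-linked gene, at 0 and 14.9 FPKM, which repeats of 1 RNA sample would not give. Since each library stands alone, a difference between them has no replicate check and no p is given for one, and an exact two-sided permutation test on 2 against 2 values cannot go below p = 0.333.

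Of the 45 genes, 43 reached 1 FPKM in both libraries, a minimum that 42.3% of all named rows passed. Together they summed to 3393 FPKM in replicate 1 and 3439 in replicate 2, which was 0.562% and 0.556% of the FPKM of each table. The 43 expressed genes had a median place at percentile 95.3 of all named rows. Their levels ran from Psme2, an interferon-inducible activator subunit, at 371 ± 13.4 FPKM to Psmc3ip at 1.85 ± 0.800 FPKM. Psmc3ip is a meiotic recombination factor and not a subunit of the complex. The order along this range was clear in its large steps and blurred in its small ones: of 42 neighbouring pairs, 12 did not overlap between the libraries, and of all 903 pairs, 835 did not.

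**Figure D1:**
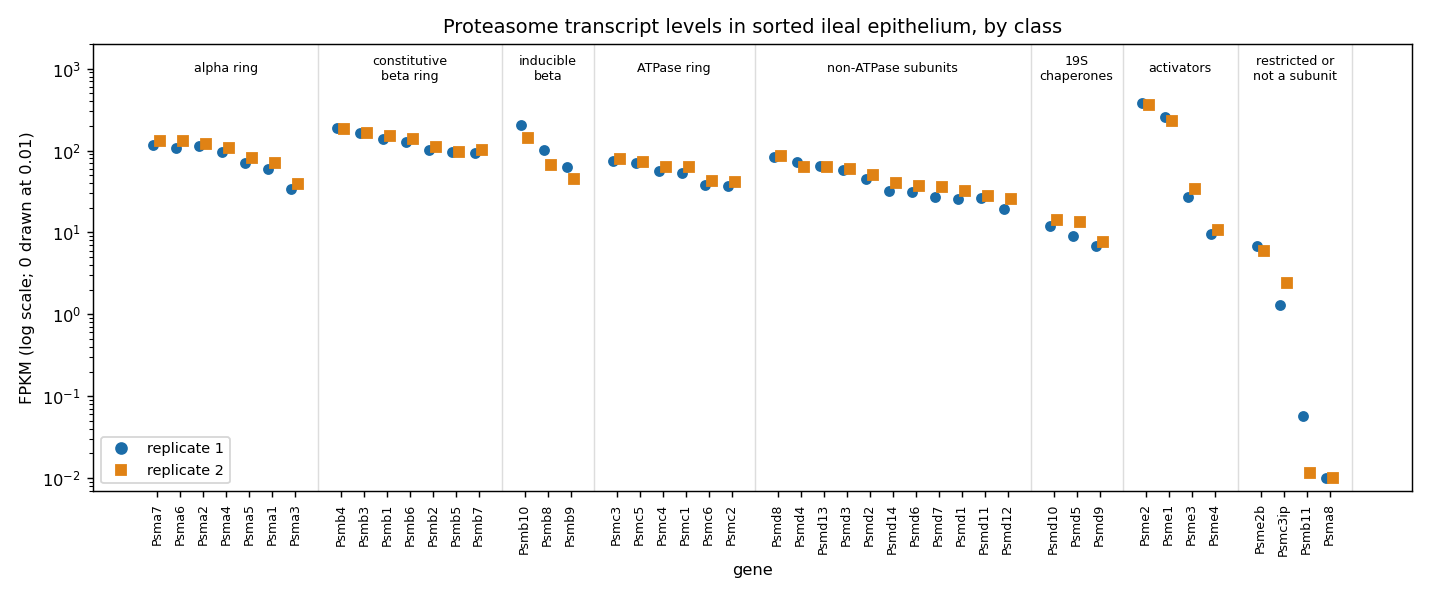
FPKM on a log axis for each of the 45 genes, grouped by role and ordered by mean within a group. Circles are replicate 1 and squares replicate 2, and a value of 0 is drawn at 0.01. Activators Psme2 and Psme1 stand highest, the constitutive beta ring lies between 92.2 and 188 FPKM, and circles lie above squares for each of the 3 inducible beta subunits.

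The constitutive beta ring was the most evenly expressed ring of the core. Its 7 genes had a median of 127 FPKM in replicate 1 and 139 in replicate 2, and the highest mean exceeded the lowest 1.92-fold. Psmb4, a non-catalytic ring subunit, led with 188 FPKM in replicate 1 and 184 in replicate 2, followed by the non-catalytic Psmb3 with 163 and 162 FPKM. Psmb1 and Psmb2, also non-catalytic, had 140 and 101 FPKM in replicate 1 and 152 and 109 FPKM in replicate 2. Of the 3 catalytic genes, 1 lay at the median of the ring and the others were its lowest. Psmb6, the caspase-like site, had 127 FPKM in replicate 1 and 139 in replicate 2. Psmb5, the chymotrypsin-like site, had 97.2 and 96.5 FPKM, and Psmb7, the trypsin-like site, had 92.2 and 101 FPKM. The last pair overlapped between libraries, so Psmb5 and Psmb7 could not be ordered.

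Alpha ring genes spread more widely, 3.42-fold from highest to lowest mean, around a median of 97.1 FPKM in replicate 1 and 107 in replicate 2. Psma7 had 117 FPKM in replicate 1 and 131 in replicate 2, next to Psma6 with 108 and 130 FPKM and Psma2 with 114 and 122 FPKM. These 3 overlapped and form an upper group, with Psma4 just under them at 97.1 and 107 FPKM. Psma5 had 70.6 and 81.8 FPKM and Psma1 had 60.1 and 71.4 FPKM. Psma3 was the lowest core gene in both libraries, with 33.7 FPKM in replicate 1 and 38.9 in replicate 2. Of the 50-base words of the Psma3 transcript, 22.0% also occur in transcripts of other genes, against 55.4% for Psma5 and none for Psma1, Psma6 and Psma7. In the beta ring the share was 55.8% for Psmb3, 57.1% for Psmb5, 28.1% for Psmb7 and none for Psmb2 and Psmb4. The sources used here do not say how reads shared between such copies were divided, so levels of genes with many shared words are uncertain.

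In the 19S particle, the 6 ATPase genes lay between 37.3 and 74.6 FPKM in replicate 1 and between 41.4 and 78.4 FPKM in replicate 2. Psmc3 had 74.6 and 78.4 FPKM and lay above Psmc5, with 69.5 and 72.3 FPKM, without overlap. Psmc4, with 56.2 and 63.0 FPKM, and Psmc1, with 53.0 and 63.3 FPKM, overlapped each other. Psmc6, with 37.5 and 42.0 FPKM, and Psmc2, with 37.3 and 41.4 FPKM, overlapped as well. The ATPases form 1 ring with a single copy of each, while their transcripts spanned 1.94-fold.

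The 11 non-ATPase subunits of the cap had a median of 31.8 FPKM in replicate 1 and 39.7 in replicate 2 and a 3.79-fold spread. Psmd8, a lid subunit, was highest with 82.3 and 86.8 FPKM. Psmd4, the ubiquitin receptor Rpn10, had 72.6 FPKM in replicate 1 and 63.2 in replicate 2. Ubiquitin is cut off the substrate by Psmd14, the deubiquitinase Rpn11, which had 31.8 and 39.7 FPKM. Psmd7, the subunit with which Psmd14 forms a pair, had a like level of 27.0 and 35.4 FPKM. The scaffold subunits of the base differed: Psmd2 had 45.4 and 50.7 FPKM, and Psmd1 had 25.8 and 31.97 FPKM. Among the remaining lid genes Psmd13, with 63.8 and 63.1 FPKM, and Psmd3, with 57.7 and 58.7 FPKM, exceeded Psmd6 at 31.5 and 36.5 FPKM and Psmd11 at 26.4 and 27.6 FPKM. Psmd12, another lid subunit, was lowest with 19.1 FPKM in replicate 1 and 25.5 in replicate 2.

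Chaperones that assist assembly of the cap without staying in it were lower still, with a median of 8.96 FPKM in replicate 1 and 13.3 in replicate 2. Psmd10 (gankyrin) had 12.1 and 14.3 FPKM, Psmd5 had 8.96 and 13.3 FPKM and Psmd9 (p27) had 6.85 and 7.57 FPKM. Every one of the 3 lay below the ATPase and non-ATPase subunits above in both libraries.

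Beta ring transcripts exceeded those of the cap genes named Psmc and Psmd. The lowest beta ring gene, at 92.2 FPKM in replicate 1 and 96.5 in replicate 2, lay above the highest of these, Psmd8, at 82.3 and 86.8 FPKM. The alpha ring overlapped with them through Psma1, Psma3 and Psma5. Class medians of the mean log2(FPKM + 1) were 7.07 for the constitutive beta ring, 6.68 for the alpha ring, 5.90 for the ATPases and 5.19 for the non-ATPase subunits. Transcript length moved with this order: the longest annotated coding transcripts had a median of 899 bases in the beta ring, 1201 in the alpha ring, 1688 among ATPases and 1983 among non-ATPase subunits. Over these 31 genes, level and length had Pearson's r = -0.548 and Spearman's rho = -0.595, a correlation across genes that share libraries and depth. The part of length in the order of the classes was not tested. The longest transcript need not be the one expressed, which bears on Psma2 and Psma3, annotated at 2911 and 2846 bases.

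**Figure D2:**
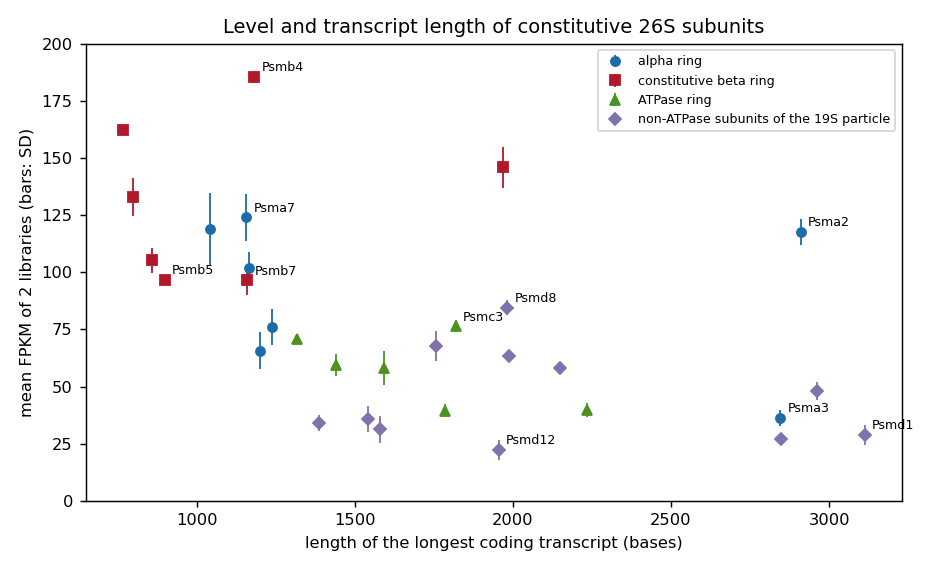
Mean FPKM over the libraries (vertical axis, from 0) against the length of the longest coding transcript in bases (horizontal axis) for the 31 constitutive 26S subunits, with SD bars (n = 2). Squares of the constitutive beta ring lie above triangles and diamonds of the cap, and genes longer than 1983 bases, other than Psma2, lie at or below 63.5 FPKM.

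The 3 catalytic pairs differed in their proportions of inducible and constitutive transcript. Psmb10, the inducible trypsin-like site, had 204 FPKM in replicate 1 and 143 in replicate 2, in both cases above its constitutive counterpart Psmb7. It held 68.9% of the summed FPKM of its pair in replicate 1 and 58.6% in replicate 2. Psmb8, the inducible counterpart of Psmb5, had 100 FPKM in replicate 1 and 66.8 in replicate 2. Its share of the pair was 50.8% in replicate 1 and 40.9% in replicate 2, so the genes were nearly level in replicate 1 and Psmb5 led in replicate 2. Psmb9, which takes the place of Psmb6, had 62.2 FPKM in replicate 1 and 44.8 in replicate 2. With 32.8% and 24.4% of its pair, it stayed below Psmb6 in both libraries.

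As log2 ratios of FPKM + 1 within a library, Psmb10 over Psmb7 averaged 0.82 ± 0.45, Psmb8 over Psmb5 -0.24 ± 0.40 and Psmb9 over Psmb6 -1.32 ± 0.42. The sign was the same in both libraries for the first and the last pair and not for Psmb8, whose ratio was 0.043 in replicate 1 and -0.52 in replicate 2. Summed over the 3 sites, inducible genes reached 367 FPKM against 317 FPKM of constitutive genes in replicate 1, a share of 53.7%. In replicate 2 the sums were 255 and 337 FPKM, a share of 43.1%. In both libraries the inducible genes themselves had the same order, Psmb10 over Psmb8 over Psmb9, although all 3 take equal numbers of places in an immunoproteasome. Psmb10 exceeded Psmb9 3.28-fold in replicate 1 and 3.20-fold in replicate 2. Bulk values such as these cannot tell fewer cells that express a gene from less of its RNA per cell.

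**Figure D3:**
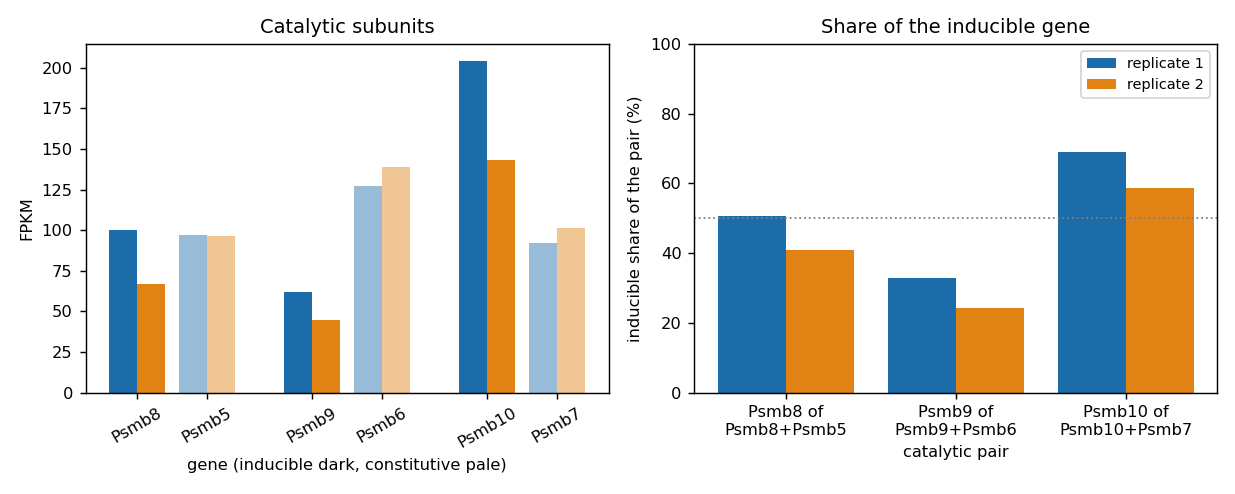
Left, FPKM of each inducible catalytic gene (dark) and its constitutive counterpart (pale) in replicate 1 (blue) and replicate 2 (orange), on an axis from 0. Right, the percent of each pair's summed FPKM held by the inducible gene, with a dotted line at 50, which is 68.9% and 58.6% for Psmb10 and 32.8% and 24.4% for Psmb9.

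In the mm10 assembly, Psmb9 (chromosome 17, 34181987 to 34187764, minus strand) and Psmb8 (chromosome 17, 34197721 to 34201454, plus strand) flank Tap1, a subunit of the transporter that carries proteasome products into the endoplasmic reticulum. Tap1 lies on the plus strand from 34187553 to 34197225, and the RefSeq starts of Tap1 and Psmb9, which point away from each other, are 226 bases apart. Psmb10 lies elsewhere, on chromosome 8 from 105935735 to 105938444 on the minus strand. These are protein-coding genes, and FPKM summarises their exons. Exons of Psmb9 overlap those of Tap1 over 15.7% of the Psmb9 transcript, those of Psmb8 overlap Gm20496 over 11.4%, and those of Psmb7 overlap Nek6 over 34.9%, each on the opposite strand. Without a stated strand setting, reads there cannot be assigned to one gene. Psmb10 has no such overlap and no 50-base word in common with another gene. For Psmb5, 57.1% of the words occur elsewhere, among other places in the pseudogene Psmb5-ps, so the Psmb5 level is uncertain too.

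Promoter sequence is shown for Psmb5, Psmb6 and Psmb10, which make up no complete catalytic pair. Psmb7 has no promoter entry, and exons cover the whole windows of Psmb8 and Psmb9. Inducible and constitutive genes differ in known regulation. Interferon acts through elements called GAS and ISRE. The factor Nrf1 (encoded by Nfe2l1), which raises proteasome genes when proteasome activity is short, binds antioxidant response elements (ARE). The sequences come from RefSeq on the GRCm38.p6 build and were cut to bases before the start that no annotated exon covers. Capitals mark matches of ISRE (GAAA and GAAA with 2 bases between), GAS (TTCNNNGAA) or ARE (TGACNNNGC) on either strand, and letters outside them are lower case. The Psmb5 stretch lies at chr14:54618023-54618245 and the Psmb10 stretch at chr8:105938445-105938642, both on the minus strand, and the Psmb6 stretch lies at chr11:70525107-70525356 on the plus strand.
Psmb5: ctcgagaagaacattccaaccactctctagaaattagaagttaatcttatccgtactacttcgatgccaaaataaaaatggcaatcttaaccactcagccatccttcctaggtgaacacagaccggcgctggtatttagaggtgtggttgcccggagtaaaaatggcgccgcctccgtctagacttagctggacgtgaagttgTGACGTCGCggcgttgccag
Psmb6: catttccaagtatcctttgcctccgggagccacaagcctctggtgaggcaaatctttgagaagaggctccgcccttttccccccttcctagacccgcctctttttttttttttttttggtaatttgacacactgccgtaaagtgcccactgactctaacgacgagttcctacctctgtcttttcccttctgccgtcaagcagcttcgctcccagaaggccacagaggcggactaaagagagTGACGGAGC
Psmb10: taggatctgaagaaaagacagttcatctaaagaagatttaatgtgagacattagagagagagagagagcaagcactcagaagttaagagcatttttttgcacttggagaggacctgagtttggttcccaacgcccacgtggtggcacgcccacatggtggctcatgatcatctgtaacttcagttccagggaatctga
The ARE letters begin 47 bases before the start of Psmb5 and 9 bases before that of Psmb6, and the Psmb10 stretch holds no match of the 3 motifs.

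Of the 45 genes, 38 had a promoter entry, and Psma8, Psmb1, Psmb2, Psmb7, Psmc3, Psmd3 and Psmd7 had none. Within 250 bases before the start, ARE letters occurred in 5 of 38 genes, or 13.2%. That is near the share of 11.5% of 27025 genes in the table, so the count does not set the family apart. Besides Psmb5 and Psmb6 these were Psmd9, Psmc6 and Psmd12, and their sites are set side by side in 30-base windows.
Psmb5: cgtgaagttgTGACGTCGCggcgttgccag
Psmb6: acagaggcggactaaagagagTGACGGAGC
Psmd9: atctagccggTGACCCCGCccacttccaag
Psmc6: ccagccagtaGCTAAGTCAggcattgctca
Psmd12: tctGCTGTGTCAcatttgcccccctcagac
The windows lie at chr14:54618023-54618052 (minus strand), chr11:70525327-70525356, chr5:123228149-123228178, chr14:45329587-45329616 and chr11:107479278-107479307 (plus strand). The letters read forward in Psmb5, Psmb6 and Psmd9 and in reverse in Psmc6 and Psmd12.

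GAS letters were found in 1 of the 38 genes, Psmb8, against 8.13% of genes in the table. The match begins 97 bases before the RefSeq start and is shown in a 30-base window at chr17:34198088-34198117 on the plus strand.
Psmb8: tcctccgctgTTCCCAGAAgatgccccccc
Exons of longer annotated transcripts of Psmb8 and Psmb9 cover the whole windows of these genes. The Psme1 window lies inside the annotated gene, and exons cover 139 of its 250 bases. The windows of Psmb8, Psmb9 and Psme1 may therefore not lie before the main start. Exons also cover 52 of 250 bases of the Psmb10 window and 92 and 12 bases of the 2 Psme2 windows. All 5 interferon-inducible genes thus have windows that reach into annotated exons. In the windows searched, none of the 5 interferon-inducible genes had the ISRE letters. These occurred in Psmb3, Psmd4 and Psmd9 and in 3.46% of genes in the table. The NF-kB letters, GGG and TTTCC with 2 bases between, occurred in none of the 38 and in 1.65% of genes, CCAAT in 15 of 38 against 37.5%, and the GC box GGGCGG in 21 of 38 against 35.4%. Both strands were searched and overlapping matches of different motifs were each kept. The median GC content of these windows was 57.6%, against 52.4% for the whole table. A match describes letters and does not show binding, and a missing match says only that this window lacks them.

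Activators held the highest values of the family. Psme2 had 380 FPKM in replicate 1 and 361 in replicate 2, and its partner Psme1 had 253 and 228 FPKM. Psme2 exceeded Psme1 1.5-fold in replicate 1 and 1.58-fold in replicate 2, although the PA28 ring is built from similar numbers of both. Psme3, which forms a related ring in the nucleus and is not induced by interferon, had 27.2 FPKM in replicate 1 and 34.2 in replicate 2. Psme1 lay above Psme3 9.30-fold in replicate 1 and 6.68-fold in replicate 2. Psme4, the PA200 activator known from testis and DNA repair, had 9.53 and 10.7 FPKM. Psme2 shares 59.3% of its 50-base words with other transcripts, chiefly Psme2b, while Psme1 shares 14.1% and Psme3 and Psme4 none. Psme1 and Psme2 lie close together on chromosome 14, Psme1 from 55578123 to 55581529 (plus strand) and Psme2 from 55587441 to 55591113 (minus strand).

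The remaining 4 symbols were low. Psme2b, whose transcript has 69.3% of its words in common with Psme2 or another copy, was listed at 6.88 FPKM in replicate 1 and 5.89 in replicate 2, so its own expression cannot be separated from that of Psme2, which is 58.1-fold higher by mean. Psmc3ip had 1.28 and 2.41 FPKM, and 29.8% of its transcript overlaps exons of Mlx on the other strand. Psmb11, the catalytic subunit of cortical thymic epithelium, had 0.0569 FPKM in replicate 1 and 0.0116 in replicate 2, where 3 fragments would give 0.0454 and 0.0281 FPKM. Psma8, the alpha subunit of the testis, was listed at 0 in both, and 3 fragments would give 0.121 FPKM in replicate 1 and 0.0750 in replicate 2. Such floors cover counting error alone and depend on the depth implied by the lowest values.

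Between the libraries, the 3 inducible beta subunits had the largest differences toward replicate 1 among the 43 expressed genes. Differences are given as replicate 1 minus replicate 2 in log2(FPKM + 1), and over 10601 genes whose mean reached 1 FPKM their median was -0.11, so a gene at -0.11 kept pace with the rest. Psmb8 differed by 0.58, Psmb10 by 0.51 and Psmb9 by 0.47, at percentiles 96.5, 95.5 and 94.5 of all those genes. With the minimum raised to 20 FPKM, which leaves 2945 genes, the places were 96.5, 95.3 and 94.4. By the steps in the lowest values, Psmb8 rested on about 2374 fragments in replicate 1 and 2559 in replicate 2, which puts a counting error of 0.041 on its difference. Psmb10 rested on about 3800 and 4308 fragments and Psmb9 on about 1198 and 1393, with counting errors of 0.032 and 0.057. Those errors cover the counting of fragments and neither the spread between animals nor library preparation.

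The inducible activator genes differed less than the inducible catalytic genes. Psme1 differed by 0.15 and Psme2 by 0.074, at percentiles 78.8 and 71.8. Over the 5 inducible genes the median was 0.47, and 5 of 5 were higher in replicate 1, a direction that 36.0% of all genes had. After removal of a trend on transcript GC content and length, 5 of 5 were again higher, a direction that 30.9% of all genes then had.

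Of the 38 other expressed genes, 32 were lower and 6 higher in replicate 1, with a median of -0.15. With the libraries rescaled to a median difference of 0 over all genes, it was -0.036. By class the medians were -0.20 for the alpha ring, -0.11 for the constitutive beta ring, -0.15 for the ATPases, -0.16 for the non-ATPase subunits and -0.22 for the cap chaperones. The constitutive counterparts of the inducible genes differed by 0.0093 for Psmb5, -0.13 for Psmb6 and -0.13 for Psmb7. Largest in the negative direction were Psmc3ip at -0.58, Psmd5 at -0.53, Psmd12 at -0.39 and Psmd7 at -0.38, and the highest outside the inducible genes was Psmd4 at 0.20. Psmc3ip rested on about 23 fragments in replicate 1 and 71 in replicate 2, a counting error of 0.35.

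In log2(FPKM + 1), no gene of the family was apart by 1.5-fold, or 0.58 on the log2 scale, in either direction. By that much, 0 of 43 were higher in replicate 1, against 3.30% of all genes, and 0 of 43 lower, against 3.78%. Without the added 1, the ratio of replicate 1 over replicate 2 was 0.531 for Psmc3ip, which is past 1.5-fold. With it, Psmb8 at 0.577 and Psmc3ip at -0.581 lay just inside the limit of 0.585. Rescaling the libraries to a median difference of 0 put Psmb8 and Psmb10 past it, 2 of 43 against 5.34% of all genes. At 0.32 on the log2 scale, a limit chosen after seeing the data, 3 were higher, Psmb8, Psmb9 and Psmb10, against 9.97% of all genes, and 4 were lower, Psmc3ip, Psmd5, Psmd7 and Psmd12, against 21.3%.

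**Figure D4:**
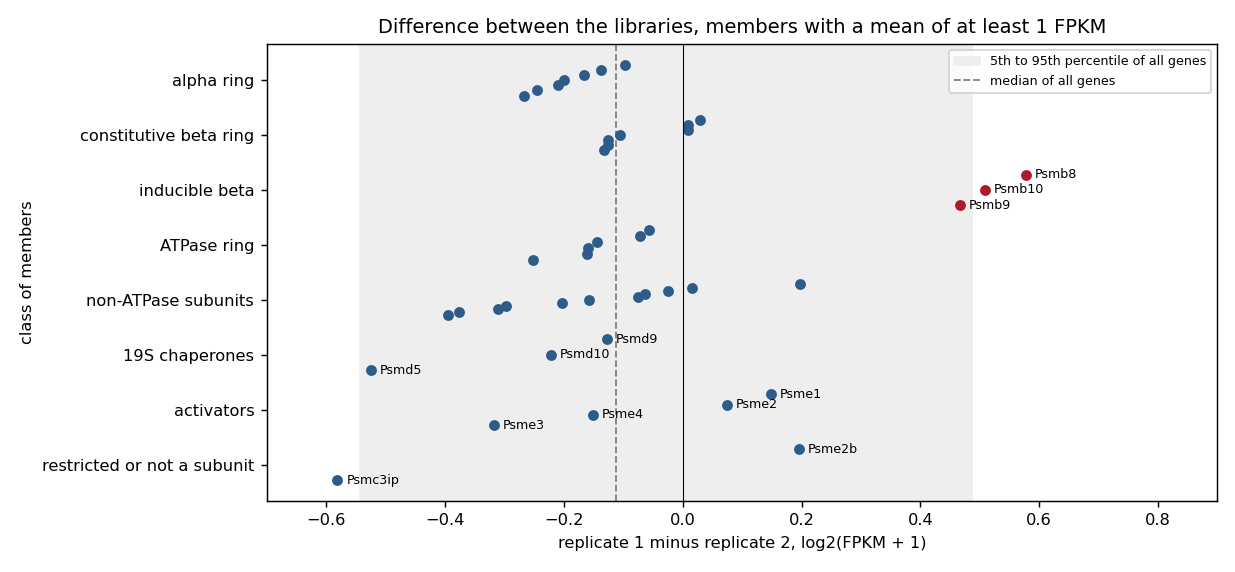
Replicate 1 minus replicate 2 in log2(FPKM + 1) for the 43 genes whose mean reached 1 FPKM, 1 point per gene, by class down the page. The shaded band spans percentiles 5 to 95 of all genes and the dashed line is their median of -0.11. The 3 inducible beta subunits, in red, lie between 0.47 and 0.58, to the right of every other point.

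The ratio of a pair within a library barely depends on library scaling. It was larger in replicate 1 by 0.57 for Psmb8 over Psmb5, by 0.59 for Psmb9 over Psmb6 and by 0.64 for Psmb10 over Psmb7, on the log2 scale. The GC content of transcripts moved with the difference between libraries, with Spearman's rho = 0.509 across 10227 genes. Genes poorest in GC, the lowest 1 in 5, had a median difference of -0.28, against 0.15 for the richest 1 in 5. The inducible genes are rich in GC, between 52.8% and 56.5%, and are not alone in this. The constitutive beta ring lies between 48.7% and 56.6%, with a median of 52.2%, while the 7 alpha ring genes have a median of 44.98%. After removal of the trend on GC and length, Psmb8 differed by 0.44, Psmb9 by 0.36 and Psmb10 by 0.32, at percentiles 95.9, 94.5 and 93.5, and the pair ratios by 0.61, 0.59 and 0.39. Psme1 and Psme2 then differed by 0.044 and 0.030, with the median of all genes kept at -0.11. Among the 38 other genes the difference also followed GC content across genes (Spearman's rho = 0.526, Pearson's r = 0.389).

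**Figure D5:**
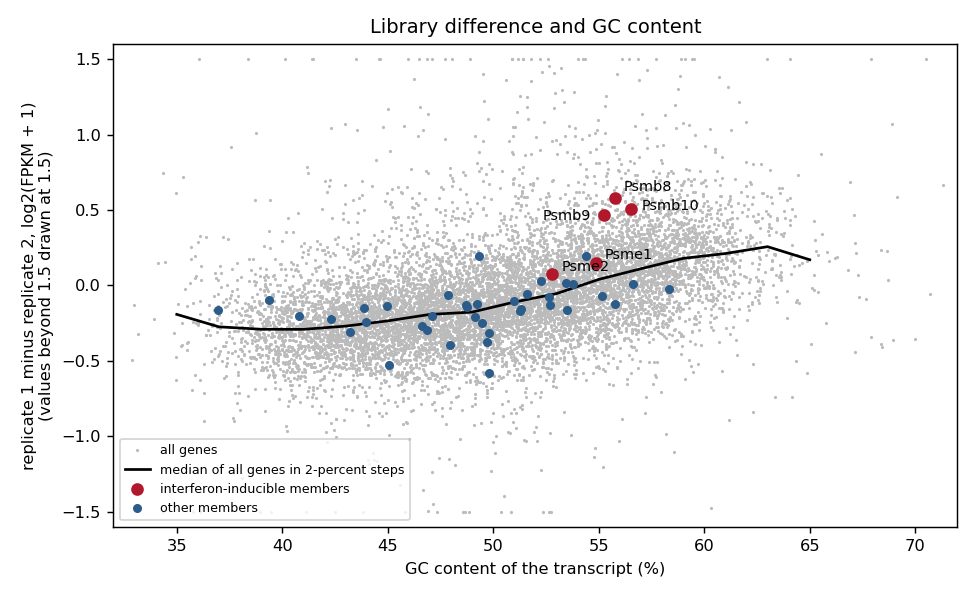
Replicate 1 minus replicate 2 in log2(FPKM + 1) against the GC content of the longest coding transcript in percent, for all genes (grey, values beyond 1.5 drawn at 1.5), the 5 interferon-inducible genes (red) and the other proteasome genes (blue). The black line is the median of all genes in steps of 2 percent. The 5 red points lie above the line, Psmb8, Psmb9 and Psmb10 farthest, and blue points lie on both sides of it.

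Cell type markers moved with the libraries too, where 36.0% of all genes were higher in replicate 1. The epithelial markers were higher in replicate 1 in 6 of 6, with a median difference of 0.19, and in 6 of 6 with the trend removed. Goblet cell markers were higher in replicate 1, 6 of 6, and had sums of 22759 FPKM in replicate 1 and 10724 in replicate 2, and the 5 Paneth cell markers lower in 5 of 5, with sums of 12804 and 23559 FPKM. Proliferation markers were lower in replicate 1 in 6 of 6, with sums of 138 and 194 FPKM. The leukocyte markers summed to 6.23 and 4.16 FPKM, with Cd4 listed at 0, Cd3e at 0.193 and 0.329 FPKM and Cd68 at 0.560 and 0.106 FPKM. Their part in the difference of the inducible subunits was not tested.

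Genes that work with the immunoproteasome on MHC class I peptides differed in both directions. Of 11, 6 were higher and 5 lower in replicate 1, where 36.0% of all genes were higher. With the trend removed, 7 of 11 were higher, against 30.9%. Tap1 had 35.3 FPKM in replicate 1 and 18.3 in replicate 2, a difference of 0.91, the only one of the 11 past 1.5-fold higher, against 3.30% of all genes, and 0.66 with the trend removed. Tap2, the other transporter subunit, differed by 0.47, the class I genes H2-D1 (596 FPKM in replicate 1 and 422 in replicate 2) and H2-K1 (787 and 605 FPKM) by 0.50 and 0.38, and Tapbp, which bridges class I molecules to the transporter, by 0.26. B2m, the class I light chain and the highest of the list at 2059 ± 76.2 FPKM, differed by -0.075, and the folding factors Calr, Canx and Pdia3 by -0.28, -0.28 and -0.22. With the trend removed, H2-D1 differed by 0.36, Tap2 by 0.22, H2-K1 by 0.19, B2m by 0.074 and Tapbp by 0.018, while Calr, Canx and Pdia3 differed by -0.19, -0.11 and -0.089.

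Of the 12 regulators of proteasome genes on the list, 11 reached a mean of 1 FPKM, and 4 of these 11 were higher in replicate 1, against 36.0% of all genes. None of the 11 was 1.5-fold apart, against 3.30% of all genes higher and 3.78% lower. Irf1, an interferon-induced transcription factor, had 85.1 FPKM in replicate 1 and 86.8 in replicate 2. Irf8, a related factor, had 40.1 and 32.1 FPKM. Nlrc5, the activator of class I genes, was under the minimum with 0.229 and 0.112 FPKM. Nfe2l1 had 16.7 FPKM in replicate 1 and 15.7 in replicate 2, and Ddi2, the protease that activates its product, had 9.92 and 11.7 FPKM. Nfe2l2, which encodes the related factor Nrf2, had 52.8 and 71.5 FPKM.

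Assembly factors and partners of the proteasome were uneven in level. Shfm1, a small subunit of the cap, had 199 FPKM in each library, and Pomp, the chaperone that matures the core, had 161 FPKM in replicate 1 and 151 in replicate 2. Adrm1, a ubiquitin receptor of the cap, had 44.9 and 40.0 FPKM. The alpha ring chaperones Psmg1, Psmg2, Psmg3 and Psmg4 lay between 8.25 and 13.6 FPKM in replicate 1 and between 11.6 and 15.3 FPKM in replicate 2, below every alpha ring gene. Uchl5, a deubiquitinase of the cap, had 9.24 FPKM in replicate 1 and 15.5 in replicate 2, and was the only one of 13 past 1.5-fold, against 3.78% of all genes in that direction and 3.30% in the other. Of the ubiquitin genes Ubb had 1449 FPKM in replicate 1 and 1265 in replicate 2, and Rps27a had 532 and 618 FPKM. None of the 15 ubiquitin genes and delivery factors was 1.5-fold apart, a count near those shares.

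Other complexes with fixed proportions give a measure of the spread within the proteasome. The 8 genes of the CCT chaperonin, a folding complex of stacked rings, spanned 1.85-fold in mean FPKM, close to the 1.92-fold of the constitutive beta ring and the 1.94-fold of the ATPase ring. Genes of the COP9 signalosome, a complex related to the lid of the cap, spanned 13.8-fold over 9 symbols, against 3.79-fold over 11 non-ATPase genes. These spreads depend on which genes are listed. The 9 include the alternative subunits Cops7a and Cops7b. Cops7b was lowest, with a mean of 5.31 FPKM, below Cops8 with 11.2 FPKM. The 11, led by Psmd8 with a mean of 84.5 FPKM, leave out the cap subunits Shfm1 and Adrm1, with means of 199 and 42.5 FPKM. The highest CCT gene, Cct5, had 75.6 FPKM in replicate 1 and 96.0 in replicate 2, next to Cct2 with 62.6 and 81.8 FPKM and Cct3 with 53.4 and 76.1 FPKM, while Cops6 had 73.8 and 72.9 FPKM, Cops7a 35.9 and 42.5 FPKM and Cops5 30.6 and 36.6 FPKM. CCT genes were higher in replicate 1 in 0 of 8, against 36.0% of all genes, with a median difference of -0.48, or -0.35 with the trend removed, against -0.15 and -0.11 for the 38 other proteasome genes. Cct6a, with 36.1 FPKM in replicate 1 and 59.7 in replicate 2, was past 1.5-fold lower, 1 of 8 against 3.78% of all genes. The difference between these lists was not tested.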

How the data were processed

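Messenger RNA was sequenced in 2 libraries of sorted ileal epithelium. The submitters' processing notes name the mm10 assembly, TopHat2 2.0.14 and Cufflinks 2.2.1. Not given in the sources used here are the annotation, the strand setting and how reads with several matches were treated. The authors deposited 1 FPKM value per gene symbol and library. Of 24384 rows, 27 named by a calendar date were left out. No count model was applied to FPKM.

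Values were taken as log2(FPKM + 1), which understates differences of low genes, and differences were taken over genes whose mean reached 1 FPKM. Depth was read from the lowest values of genes with 1 transcript, with 160 bases taken off the length. Lengths, GC content, coordinates and shared 50-base words came from GENCODE M21, built on mm10, for 45 of 45 members and 96.5% of 10601 genes. The trend was the median difference in 10 steps of GC content and 5 of length, and the all-gene median was added back. The trend and depth steps were tested on simulated data. For depth, the simulation used the same 160 bases and the same transcript lengths, so it could not check those assumptions. Promoters were matched by symbol. Members and gene lists were chosen with earlier results of these data known. Named genes are the catalytic subunits, the activators, the extremes of the family and of each class, genes 1.5-fold apart, symbols that are no standard subunit and the 3 highest of each partner list; others were chosen after their values were seen, and some genes of the partner lists are not reported here. Other settings tried were pseudocounts, minima, folds, a rescaling, the trend and single libraries. Python 3.11.15, pandas 2.3.3, numpy 2.4.6 and matplotlib 3.10.9 were used.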

Additional observations from a re-analysis of the deposited data

How the results depend on the processing

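Of 74 alternatives over 15 results, 66 kept the value within the SD between the libraries, or the count within 1.5 times. That count is no measure of stability. For the median differences the SD was taken from the difference itself, 0.33 for the 5 inducible genes at 0.47. Their median of 0.32 with the trend removed was therefore counted as kept. A minimum that all genes of a set pass could not change its value. With 2 libraries, leaving 1 out moves a mean by less than 1 SD by construction, so for the ratios and class levels those settings say nothing about stability. No paired analysis was possible because there is 1 group. Rescaling replicate 2 so that the median difference of all genes is 0 moved the median over all 43 expressed members to -0.021, against -0.13 as deposited, and that over the 38 others to -0.036, against -0.15. It also put 2 members, Psmb8 and Psmb10, past 1.5-fold higher in replicate 1, against 0 as deposited and 5.34% of all genes. Pseudocounts of 0.1 and 0.01 each put 1 member, Psmc3ip, past 1.5-fold lower, against 0. At 0.32 on the log2 scale, chosen after seeing the data, the counts were 3 higher and 4 lower. The log2 ratio of Psmb8 over Psmb5 was -0.52 without replicate 1 and 0.043 without replicate 2, so its sign rests on the library used. Without either replicate the ratio ranged from -1.61 to -1.02 for Psmb9 over Psmb6 and from 0.50 to 1.14 for Psmb10 over Psmb7. The median of the 5 inducible genes lay between 0.32 and 0.58 in every alternative. With 1 group of 2 libraries, neither the spread between animals nor an effect of sex, library preparation or cell composition can be told apart from the differences given.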
